A study of Oryza sativa Japonica Group with 4 samples.

Results

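The Aux/IAA genes of rice (Oryza sativa, japonica) were followed in RNA sequencing libraries from the above-ground parts of unstressed seedlings at the 4-leaf stage. The members were the 31 loci named OsIAA1 to OsIAA31, beside 28491 genes listed in at least 1 library. They were chosen by locus identifier and not by any measured value, though with earlier results of these data known. Compared were wild type DongJin, a japonica cultivar, and a modd mutant from the POSTECH rice mutant library, with 2 libraries each. Those labelled modd mutant are called the modd2 libraries after their titles. Both groups were raised in a sand and paddy soil mix under 14 h of natural light and 10 h of dark, with no added agent. By the series title, MODD turns off OsbZIP46, a transcription factor in abscisic acid signalling, and leads to its degradation. The sources used here do not give the kind of mutation, whether modd2 is a single line, or whether replicates are separate plants, so the p-values reflect only library-to-library spread, which may be technical.

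Aux/IAA proteins are short-lived nuclear repressors of the auxin response. They bind auxin response factors (ARFs) through their C-terminal domain and recruit TOPLESS-type corepressors through an N-terminal motif. Auxin acts as a glue between a central degron of the Aux/IAA protein and the F-box receptors TIR1 and AFB, which leads to the repressor's breakdown and frees the ARF. Many Aux/IAA genes are themselves induced by auxin, and in rice members of the family have been tied to lateral and crown root formation, gravitropism, leaf angle, tillering and drought tolerance.

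The libraries held 5334814 to 5393972 expected reads, of which the family took 9250 and 9593 in the modd2 libraries and 10480 and 10230 in DongJin replicates 1 and 2. MODD itself was at 36.9 and 46.6 FPKM (fragments per kilobase of transcript, scaled to sequencing depth) in the modd2 libraries, above 21.0 and 21.3 FPKM in DongJin, so the label is not matched by a lower transcript, and directions are given for the libraries as labelled. On the first principal component, computed on all tested genes, DongJin replicate 2 lay farthest out, at 44.3 against 9.38 for DongJin replicate 1 and -31.4 and -22.3 for the modd2 libraries. All 4 photosynthetic leaf markers were listed in every library, with a summed level of 5650 and 6616 FPKM in the modd2 libraries and 6809 and 7717 FPKM in DongJin. The root list of 6 genes had OsYSL15, LSI2 and OsNRT2.1 at 0 in every library. Its other genes were listed: LSI1 at 9.56 to 13.38 FPKM, the gene at LOC_Os06g48810 at 2.16 to 5.67 FPKM, and RCc3 at 0.69 FPKM or less. The root list summed to 19.7 and 17.2 FPKM in the modd2 libraries and 15.4 and 11.7 FPKM in DongJin. The panicle marker OsMADS14 was at 10.96 to 12.79 FPKM. The meristem markers OSH1 and OSH15 summed to at most 0.7 FPKM in any library. The leaf and root sums order the libraries as the first component does, and their part in the differences below was not tested. In whole shoots, fewer cells of a type and less RNA per cell cannot be told apart.

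A few members carried most of the family's transcript in the shoot. Of the 31 members, 25 were listed in all 4 libraries, 3 in some of them and 3 in none. OsIAA17 (LOC_Os05g14180, chromosome 5) was the highest member in every library, at 348 and 342 FPKM in the modd2 libraries and 412 and 394 FPKM in DongJin. It made up 29.1 and 27.5% of the family's summed FPKM in the former and 30.5 and 30.6% in the latter, and it ranked 132 among all listed genes by mean FPKM. Its level was from 2.85 to 3.33 times that of OsIAA10, the next member, in the same library. The 10 highest members together took 85.8 to 87.1% of the summed FPKM, and the order within either group shared at least 9 of these 10 with the order over all 4 libraries.

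Below OsIAA17, 4 members lay close together. OsIAA10 (LOC_Os02g57250), which in rice is known as an Aux/IAA protein bound and stabilised by a rice dwarf virus protein, was at 115 and 120.2 FPKM in the modd2 libraries and 123.5 and 122.9 FPKM in DongJin. OsIAA21 (LOC_Os06g22870) was at 112 and 120.2 FPKM against 127 and 116 FPKM. OsIAA24 (LOC_Os07g08460) was at 91.4 and 106 FPKM against 126 and 97.3 FPKM. The ranges of these 3 over the libraries overlapped between neighbours in the order, so their order is not settled. OsIAA6 (LOC_Os01g53880), linked in rice to drought tolerance and tiller outgrowth, followed at 81.2 and 84.1 FPKM against 96.1 and 110.8 FPKM, overlapping OsIAA24 and lying above the range of OsIAA15 in every library.

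The remaining members of the upper 10 lay from 31.2 to 77.9 FPKM. OsIAA15 (LOC_Os05g08570) was at 71.6 and 73.1 FPKM in the modd2 libraries and 77.2 and 77.9 FPKM in DongJin. OsIAA13 (LOC_Os03g53150), whose stabilised form blocks lateral root initiation in rice, was at 69.6 and 75.8 FPKM against 70.3 and 63.3 FPKM. OsIAA3 (LOC_Os01g13030) was at 59.9 and 60.5 FPKM against 61.5 and 60.2 FPKM. Its 4 values were the most even of this set, and they lay below all 4 of OsIAA13 and above all 4 of OsIAA19. OsIAA19 (LOC_Os05g48590) was at 51.8 and 46.4 FPKM against 42.0 and 44.5 FPKM. OsIAA1 (LOC_Os01g08320), which alters auxin and brassinosteroid responses when overexpressed in rice, was at 34.3 and 39.0 FPKM against 31.2 and 36.3 FPKM, and its range overlapped that of OsIAA30.

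**Figure D1:**
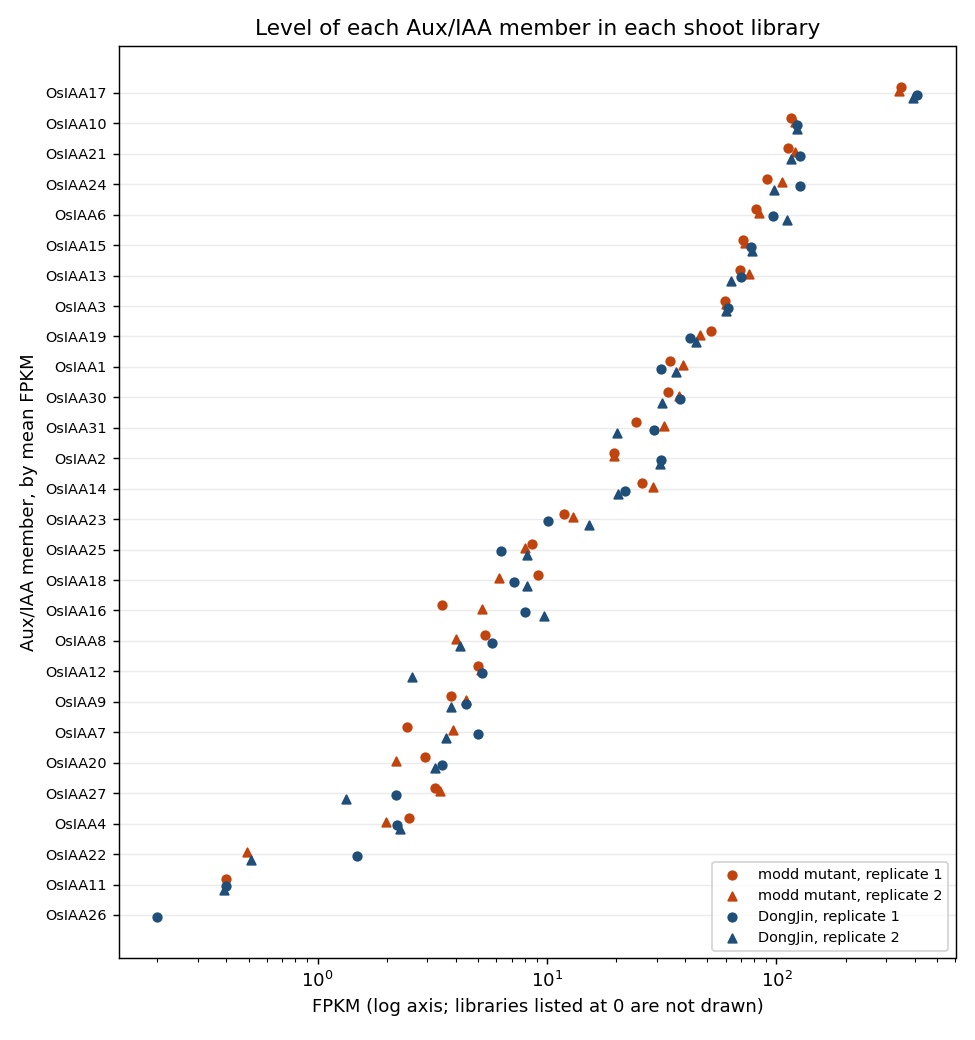
FPKM of the 28 Aux/IAA members listed in at least 1 library (log axis), 1 point per library, with members in order of mean FPKM. OsIAA17 stands apart at 342 to 412 FPKM, 14 further members lie above 10 FPKM in all 4 libraries, and OsIAA22, OsIAA11 and OsIAA26 lie at or below 1.49 FPKM.

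In all, 15 members stayed above 10 FPKM in all 4 libraries, and 13 listed members had a mean under 10 FPKM, beside a median of 5.08 FPKM over all listed genes. Several members studied in rice for root traits or stress had means under 10 FPKM or just above it. OsIAA23 (LOC_Os06g39590), whose stabilised form causes loss of the root quiescent centre in rice, was at 10.1 to 15.3 FPKM and so just above that level. OsIAA18 and OsIAA20, which raise drought and salt tolerance when overexpressed in rice, had means of 7.67 and 2.96 FPKM over the 4 libraries. OsIAA4, known for auxin insensitivity when stabilised, and OsIAA9, tied to root gravitropism, had means of 2.25 and 4.13 FPKM. OsIAA22 and OsIAA26 were missing from at least 1 library, OsIAA26 being listed only in DongJin replicate 1, from 1 read. OsIAA5 (LOC_Os01g48450), OsIAA28 and OsIAA29 were listed in none, which counts as 0 here but may not be a true 0, since the tables list only genes above 0.

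Members that are neighbours on a chromosome were close in level in some cases and far apart in others. OsIAA11 and OsIAA12 (LOC_Os03g43400 and LOC_Os03g43410) lie next to each other on chromosome 3 in the RefSeq gene order of assembly ASM3414082v1. OsIAA11, whose stabilised form abolishes lateral roots in rice, was at 0.40 and 0 FPKM in the modd2 libraries and 0.40 and 0.39 FPKM in DongJin, from at most 2.08 reads. OsIAA12, tied in rice to leaf inclination through OsARF17, was at 5.02 and 5.17 FPKM against 5.18 and 2.57 FPKM. It thus exceeded its neighbour in every library, by 12.5, 12.9 and 6.59 times in the 3 libraries that list both.

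The group of 3 on chromosome 11, taken as neighbours from their locus identifiers alone, was uneven as well, with a single member detected. OsIAA27 (LOC_Os11g11410) was at 3.26 and 3.43 FPKM in the modd2 libraries and 2.20 and 1.33 FPKM in DongJin, while OsIAA28 (LOC_Os11g11420) and OsIAA29 (LOC_Os11g11430) had no row in any library. The chromosome 12 neighbours OsIAA30 (LOC_Os12g40890) and OsIAA31 (LOC_Os12g40900), also adjacent in the RefSeq order, were both expressed. OsIAA30 was at 33.5 and 37.5 FPKM against 38.1 and 31.5 FPKM, and OsIAA31 at 24.4 and 32.4 FPKM against 29.1 and 20.1 FPKM. OsIAA30 was the higher of the pair in every library, from 1.16 to 1.57 times, although the ranges of the 2 genes over the libraries overlapped.

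A single member, OsIAA2, was called lower in the modd2 libraries by edgeR. OsIAA2 (LOC_Os01g09450, chromosome 1) was at 19.7 and 19.5 FPKM there, from 187 reads in each, and at 31.5 and 31.1 FPKM in DongJin, from 301 and 299 reads. The 2 libraries of each group nearly coincided. The modd2 libraries lay below both DongJin libraries, as for 21.1% of all tested genes. The difference was 1.64-fold, a log2 fold change of -0.72 (standard error 0.121, 2 libraries per group; 95% interval from -0.99 to -0.45; edgeR adjusted p = 0.0344), lower in 2 of 2 libraries. By mean FPKM OsIAA2 ranked 12 within the family in DongJin and 14 in the modd2 libraries. Without modd2 replicate 1 the value was -0.71 and the edgeR adjusted p 0.0641, and on log2(FPKM + 1) values it was -0.65 with a limma adjusted p of 0.0903. Without DongJin replicate 2, the library lying farthest out, the value was -0.70 (edgeR adjusted p = 0.00488).

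OsIAA2 was 1 call among the 25 tested members, and none was called higher. Over all 19365 tested genes 0.837% were called, 0.501% higher and 0.336% lower, and a single gene says nothing particular about the family. By unadjusted edgeR p, 5 of the 25 members were below 0.05, beside 16.8% of all tested genes. Log2 fold changes were above 0 for 8 members and below 0 for 17, from -1.07 to 0.75 with a median of -0.06, beside a median of 0.00 over all tested genes. The groups did not overlap in FPKM for 10 of the 25 members, 7 with the modd2 libraries below and 3 above, beside 49.7% of all tested genes, 21.1% below and 28.6% above. The remaining 6 members had too few reads to be tested.

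**Figure D2:**
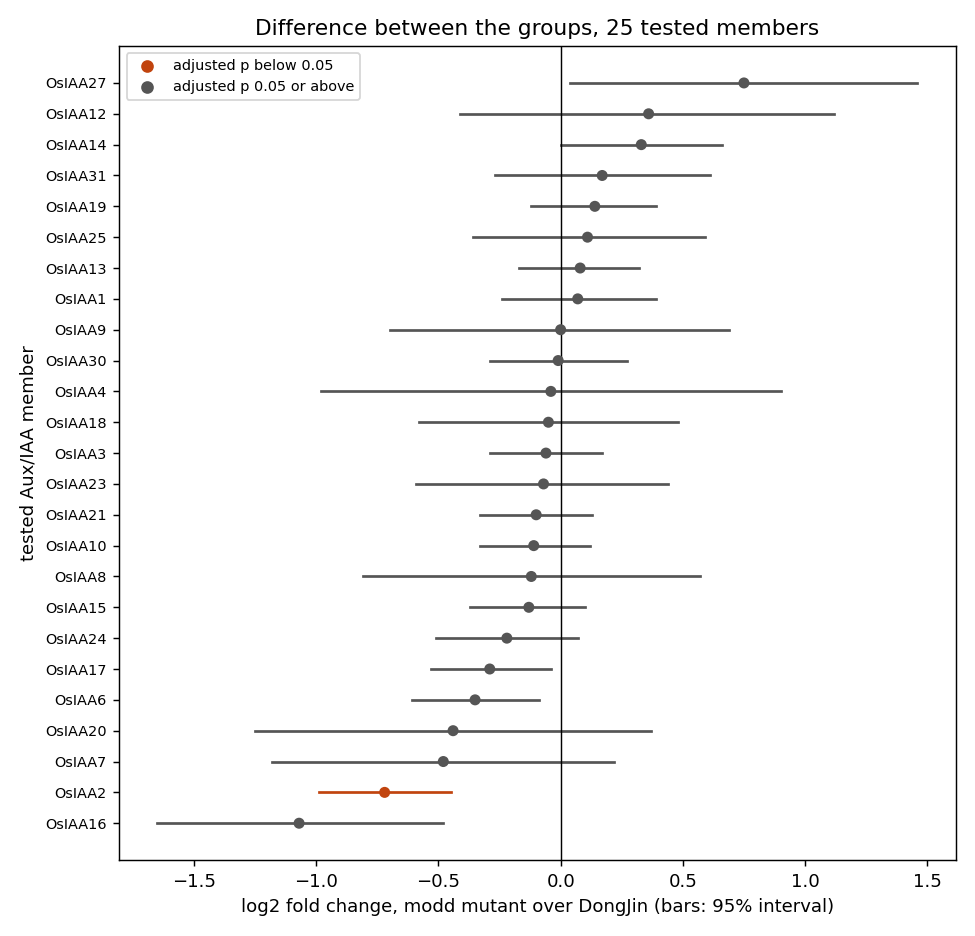
Log2 fold change of the modd2 libraries over DongJin for the 25 tested members, with 95% intervals from edgeR's quasi-likelihood fit (2 libraries per group). OsIAA2, at -0.72, is the only member with an adjusted p below 0.05, and 22 of the 25 lie within 0.5 of 0.

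The other members with the smallest adjusted p were not called. OsIAA16 (LOC_Os05g09480) showed the largest difference among the tested members, at 3.50 and 5.23 FPKM in the modd2 libraries and 8.05 and 9.72 FPKM in DongJin. The counts behind it were 26 and 39 reads against 60 and 73.0 reads. The groups did not overlap for OsIAA16, with the modd2 libraries below, as for 21.1% of all tested genes. Its log2 fold change was -1.07 ± 0.262 (SE; 95% interval from -1.65 to -0.48; edgeR adjusted p = 0.0907). The call depended on the libraries: the adjusted p was 0.0153 without modd2 replicate 2, with a value of -1.40 and 2.94% of all tested genes called, and 0.00168 without DongJin replicate 1, with a value of -1.23. Without modd2 replicate 1 the value was -0.80, without DongJin replicate 2 it was -0.89, and OsIAA16 was not called in either fit. The share of all tested genes called without DongJin replicate 1 is given with OsIAA6 below. DESeq2 gave no adjusted p for OsIAA16, whose counts lay under its own filter.

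OsIAA6, given above, was lower in both modd2 libraries than in either DongJin library, with a log2 fold change of -0.35 ± 0.117 (SE; 95% interval from -0.61 to -0.09; edgeR adjusted p = 0.181). Its value was -0.48 without DongJin replicate 1, where it passed (edgeR adjusted p = 0.00298) among 12.4% of all tested genes, and -0.21 without DongJin replicate 2. OsIAA17, the most abundant member, likewise had the modd2 libraries below both DongJin libraries, as for 21.1% of all tested genes. Its mean was 345 ± 4.39 FPKM (SD, n = 2) against 403 ± 12.6 FPKM. Its log2 fold change was -0.29 ± 0.111 (SE; 95% interval from -0.53 to -0.04; edgeR adjusted p = 0.235). OsIAA27 was the member with the largest positive value, 0.75 ± 0.318 (SE; 95% interval from 0.04 to 1.46; edgeR adjusted p = 0.272), resting on 28 and 29 against 19 and 14 reads.

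**Figure D3:**
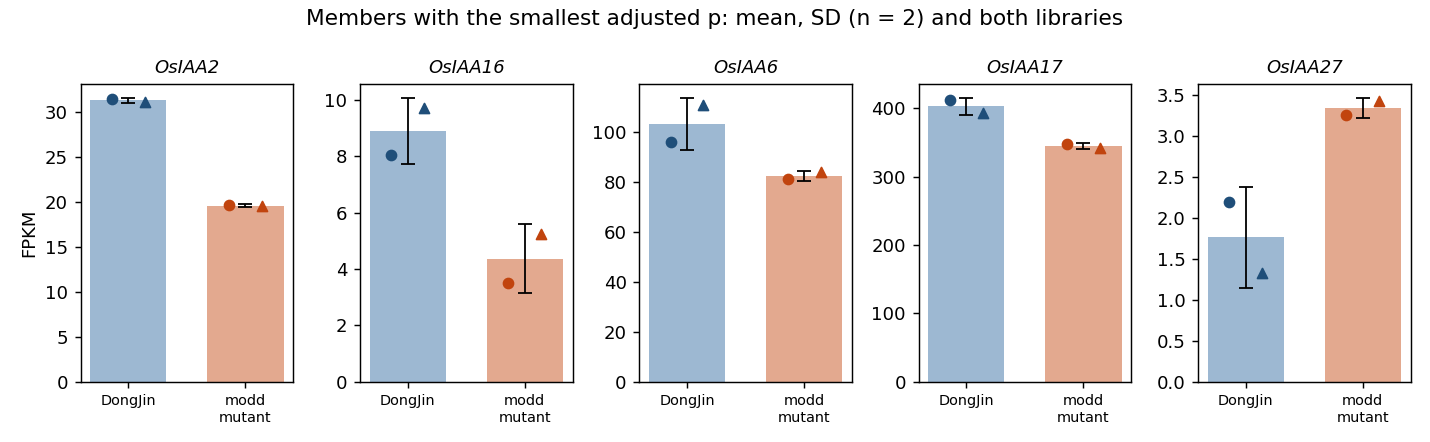
FPKM of the 5 members with the smallest adjusted p, with bars for group means, error bars for the SD of 2 libraries, and points for the libraries (circle, replicate 1; triangle, replicate 2). The groups do not overlap for any of the 5, beside 49.7% of all tested genes. The 5 were picked by p in these same data, so the lack of overlap is no separate evidence. Only OsIAA2, at 19.7 and 19.5 against 31.5 and 31.1 FPKM, passed the test.

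For some abundant members the intervals were narrow. The 95% interval of the log2 fold change ran from -0.33 to 0.12 for OsIAA10, from -0.33 to 0.13 for OsIAA21 and from -0.29 to 0.17 for OsIAA3, so for these a change of 0.5 in either direction lay outside the interval. For OsIAA13 it ran from -0.17 to 0.32 and for OsIAA19 from -0.12 to 0.39. For OsIAA24, the fourth in level, it ran from -0.51 to 0.07, and it reached below -0.5 for OsIAA17 and OsIAA6 too, as given above. Among low members the data allowed larger differences: the interval ran from -0.98 to 0.90 for OsIAA4, which had 10 to 13 reads per library, and from -1.25 to 0.37 for OsIAA20. The neighbours OsIAA30 and OsIAA31 had values of -0.01 (edgeR adjusted p = 0.974) and 0.17 (0.701), and OsIAA12 had one of 0.36 (0.641).

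The family's summed level was slightly lower in the modd2 libraries. It was 1198 and 1244 FPKM there and 1350 and 1289 FPKM in DongJin, so both were below both. The group means were 1221 ± 32.5 and 1319 ± 42.7 FPKM (SD, n = 2), a difference of -7.48%. A two-sided exact permutation test gave p = 0.333, the smallest that 2 against 2 libraries allow. Without OsIAA17 the sums were 849 and 901 FPKM against 938 and 895 FPKM, and the groups then overlapped.

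The other genes of the auxin pathway were set beside the family, 63 in all, of which 45 were tested. The corepressors that Aux/IAA proteins recruit were well expressed, and none of the 3 was called by edgeR or DESeq2, nor had an unadjusted edgeR p below 0.05. ASP1 was at 38.9 and 35.1 FPKM in the modd2 libraries and 35.0 and 29.8 FPKM in DongJin (log2 fold change 0.15, edgeR adjusted p = 0.525). OsTPR2 was at 59.1 and 53.2 FPKM against 49.3 and 47.0 FPKM (0.18, edgeR adjusted p = 0.413). OsTPR3, the most abundant of the 3, was at 100.4 and 91.6 FPKM against 92.02 and 93.0 FPKM (0.01). The modd2 libraries lay above both DongJin libraries for ASP1 and OsTPR2, as for 28.6% of all tested genes, and overlapped them for OsTPR3.

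Among the 5 auxin receptor genes, which code for the F-box proteins that mark Aux/IAA proteins for breakdown, none was called by edgeR or DESeq2, and 1 had an unadjusted edgeR p below 0.05. That gene, OsAFB3, was at 11.7 and 13.8 FPKM in the modd2 libraries and 15.02 and 18.4 FPKM in DongJin (log2 fold change -0.44, edgeR adjusted p = 0.204). OsAFB4 was at 26.6 and 24.3 FPKM against 22.9 and 21.0 FPKM (0.18, edgeR adjusted p = 0.456). OsTIR1 had a value of -0.06.

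The ARF transcription factors, which Aux/IAA proteins hold in check, were not called by edgeR. Of 25 genes, 22 were tested. Their log2 fold changes ran from -0.34 to 0.97 with a median of 0.09, and 13 were above 0, beside 9806 of the 19365 genes tested in all. An unadjusted edgeR p below 0.05 was found for 7, beside 16.8% of all tested genes, and DESeq2 called 2, OsARF12 and OsARF19, among the 1.81% of all tested genes that it called. OsARF17, which acts with OsIAA12 in leaf inclination, was at 39.7 and 35.1 FPKM in the modd2 libraries and 28.5 and 23.7 FPKM in DongJin (log2 fold change 0.48 ± 0.115, SE, edgeR adjusted p = 0.0885). OsARF12 was at 67.0 and 57.3 FPKM against 44.5 and 29.4 FPKM (0.71 ± 0.17, SE, edgeR adjusted p = 0.0989; DESeq2 adjusted p = 0.0125), and its fractional counts mean that reads were split among similar genes. OsARF19, a partner of OsIAA13 in rice roots, was at 36.8 and 39.5 FPKM against 24.5 and 13.5 FPKM (0.97 ± 0.26, SE, edgeR adjusted p = 0.174; DESeq2 adjusted p = 0.00164). In these 3 genes DongJin replicate 2 was the lowest library. OsARF19 is named for its DESeq2 call, after its values were seen.

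GH3 genes, known to respond to auxin, were low in these shoots. Of 6 GH3 genes, coding for enzymes that conjugate auxin to amino acids, 3 were tested. None was called by edgeR or had an unadjusted edgeR p below 0.05, and DESeq2 gave none of the 3 an adjusted p. OsGH3-2 was at 2.99 and 3.29 FPKM in the modd2 libraries and 2.51 and 3.03 FPKM in DongJin (edgeR adjusted p = 0.824), and OsGH3-8 at 1.12 and 1.51 against 1.75 and 1.18 FPKM (edgeR adjusted p = 0.827). The groups overlapped for both. OsSAUR39, of the small auxin-up RNA family and known in rice as a negative regulator of auxin synthesis and transport, was at 12.6 and 10.2 FPKM against 5.80 and 2.53 FPKM. Its log2 fold change was 1.40 ± 0.341 (SE, edgeR adjusted p = 0.0894), from 54 and 44 reads against 25 and 11 reads. The modd2 libraries lay above both DongJin libraries, as for 28.6% of all tested genes. With single libraries left out, the value ran from 0.96 (without DongJin replicate 2, the lowest library) to 2.08 (without DongJin replicate 1).

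Of 9 auxin synthesis genes 4 were tested, all with values above 0 and a median of 0.36. None was called by edgeR, and 1 had an unadjusted edgeR p below 0.05. DESeq2 gave an adjusted p for FIB and OsYUC7 only, and called neither. FIB, coding for a tryptophan aminotransferase, was at 16.1 and 11.5 FPKM in the modd2 libraries and 11.2 and 8.57 FPKM in DongJin (log2 fold change 0.44, edgeR adjusted p = 0.284). The flavin monooxygenase gene OsYUC7 was at 11.4 and 11.2 FPKM against 9.40 and 8.52 FPKM (0.29, edgeR adjusted p = 0.387). Both genes were lowest in DongJin replicate 2.

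Of 13 auxin transport genes 7 were tested and 1 was called higher, beside 0.501% of all tested genes. OsPIN10a (LOC_Os01g45550), an auxin efflux carrier gene also known as OsPIN3t and tied to drought responses in rice, was at 18.4 and 17.7 FPKM in the modd2 libraries and 9.72 and 6.46 FPKM in DongJin. The modd2 libraries lay above both DongJin libraries, as for 28.6% of all tested genes. The difference was 2.16-fold, a log2 fold change of 1.11 (standard error 0.171, 2 libraries per group; 95% interval from 0.73 to 1.49; edgeR adjusted p = 0.0272), higher in 2 of 2 libraries. DongJin replicate 2 was the lowest library, and without it the log2 fold change was 0.88. Its counts held fractions, so some reads were shared with similar genes. On log2(FPKM + 1) values it was not called (limma adjusted p = 0.101). The influx carrier gene at LOC_Os05g37470 was at 8.75 and 9.24 FPKM against 9.66 and 11.3 FPKM (-0.22, edgeR adjusted p = 0.542).

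**Figure D4:**
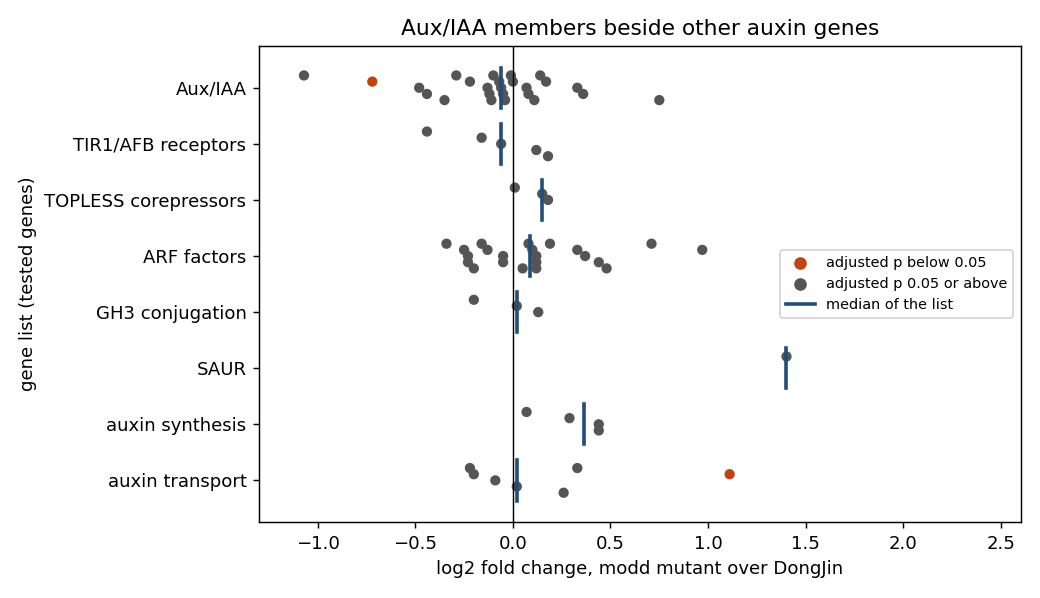
Log2 fold change of the modd2 libraries over DongJin for every tested Aux/IAA member and every tested gene of 7 other auxin lists, 1 point per gene, with the median of each list as a bar. OsIAA2, at -0.72, and OsPIN10a, at 1.11, are the 2 genes with an adjusted p below 0.05.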

How the data were processed

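Per the file headers, the columns of each library's gene table are gene and transcript identifiers, length, expected count and FPKM. The authors' expected counts are estimates of the reads from a gene, which need not be whole where similar genes share reads. Their deposited FPKM values scale these by length and by library. RSEM, Bowtie and BWA are named, without versions or roles, in the submitters' processing notes. The sources used here give no genome build or annotation. Missing rows counted as 0. Groups came from the genotype labels and replicate numbers from the titles.

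Rounded expected counts were fitted in edgeR 4.0.16 under R 4.3.3 (filterByExpr with a minimum count of 10 and a minimum total of 15, TMM factors, robust quasi-likelihood fit, no covariate). The Benjamini-Hochberg adjustment ran over all 19365 genes tested, with a threshold of 0.05, and 25 of the 31 members passed the filter. The standard error is the log2 fold change divided by the square root of F. The common biological coefficient of variation was 10.3%, and the procedure was tested on simulated counts. Chi-square per degree of freedom between the libraries of a group was 2.54 (modd mutant) and 4.5 (DongJin), more than counting the same library again would give, so all 4 were kept. This does not show that they came from separate plants. DESeq2 1.42.0 and limma 3.58.1 on log2(FPKM + 1) were among the alternatives.

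The members and lists were chosen with earlier results of these data known. Values are given in every library for the 10 members highest in mean FPKM, the 5 with the smallest adjusted p, neighbouring members on a chromosome, and, from each pathway list, called genes and the 2 with the smallest adjusted p. RefSeq names and gene order (assembly ASM3414082v1) matched 28 of the 31 members by synonym and chromosome. OsIAA22, OsIAA27 and OsIAA28 were not matched, so the order of the chromosome 11 group was not checked. A count was taken as fractional where it was more than 0.02 from a whole number. Reads shared with similar genes were so marked in OsIAA1, OsIAA11, OsIAA15, OsIAA22, OsIAA23 and OsIAA25.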

Additional observations from a re-analysis of the deposited data

How the results depend on the processing

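The number of genes called among all tested was 162 and became 102 with upper-quartile factors, 350 with DESeq2, 764 without the count filter, 1 with limma on log2(FPKM + 1) as on log2(FPKM + 0.1), and 870 with the replicate number as a block. With single libraries left out it ran from 144 to 2483, the latter without DongJin replicate 1 (591 without modd2 replicate 2, 457 without DongJin replicate 2). The member count was 1, OsIAA2. It was 2, with OsIAA16 added, without the count filter and with the replicate block, and 0 with either limma form, where 5 members had an unadjusted p below 0.05. It ran from 0 (without modd2 replicate 1, 2 members with an unadjusted p below 0.05) to 3 with single libraries left out, the latter without DongJin replicate 1. In the other auxin lists the count was 1, and 3 with DESeq2, 4 without the count filter and with the replicate block, 0 with either limma form (7 unadjusted), and from 1 to 10 with single libraries left out. With limma's log2(FPKM + 0.1) form, OsIAA2 had an adjusted p of 0.0932. Over its 13 alternatives its log2 fold change ran from -0.74 to -0.65 and its adjusted p from 0.000366 to 0.0932. For OsIAA16 the adjusted p was 0.0166 without the count filter and 0.0278 with the block, where its value was -1.08. The cause of these shifts was not tested. The log2 ratio of the family's summed FPKM, -0.112, was -0.121 on TPM and from -0.145 to -0.079 with single libraries left out.

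Same-numbered libraries did not deviate together (correlation 0.0126 over tested genes). With 2 libraries per group this cannot settle whether the replicate numbers pair the samples, and the main fit used no pairing. OsIAA4, OsIAA7, OsIAA8, OsIAA9 and OsIAA20 were among the members with few reads. Their 95% intervals were wide, such as from -0.81 to 0.57 for OsIAA8, and differences inside them are not excluded. A further 6 members could not be tested.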

Other observations

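Set against the ARF factors as a whole, the Aux/IAA family was lower in the modd2 libraries. This ratio was chosen after the values were seen. The summed FPKM of the 31 Aux/IAA members was 1.45 and 1.51 times that of the 25 ARF genes in the modd2 libraries, and 1.65 and 1.73 times in DongJin. The groups did not overlap, and a two-sided exact permutation test gave p = 0.333, the smallest that 2 against 2 libraries allow. A ratio within a library does not depend on the library's scaling. The ARF sum was 829 and 822 FPKM against 817 and 744 FPKM, lowest in DongJin replicate 2.

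Several members varied more between libraries of a group than between the groups, among them OsIAA31, OsIAA24, OsIAA30 and OsIAA8. OsIAA31 differed by 0.40 (log2 of FPKM + 1) between the modd2 libraries and by 0.51 between the DongJin libraries, and OsIAA24 by 0.21 and 0.37, while OsIAA3 differed by 0.01 and 0.03.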
